A study of Homo sapiens with 2 samples.

Results

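The genes described here are the ATP-binding cassette (ABC) genes, chosen by their symbol: every gene whose platform annotation name is ABC, a letter from A to G and a digit. The arrays held 54675 probe sets, of which 41091 had 1 symbol in the platform annotation and covered 19775 named genes. Among these were 99 probe sets of 45 ABC genes. They were measured in a pair of human melanoma cell lines, with 1 array for each. IGR37 was derived from a melanoma metastasis in a lymph node, and IGR39 from a primary tumour of the skin described as achromic, meaning without pigment. Both lines were grown in the same medium with serum, and no treatment is given in the labels. Each line was measured once, so no difference has a replicate check, no test was run, and precision is limited by there being 1 array per line.

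ABC proteins bind and hydrolyse ATP through a conserved nucleotide-binding domain. Most use it to move lipids, drug molecules, conjugates or peptides across a membrane, while the members of subfamilies E and F have no membrane domain and act on ribosomes. In melanoma the family is known chiefly for drug efflux, with ABCB5 first described in pigmented cells and used as a marker of tumour-initiating melanoma cells. Other members load cholesterol on to lipoproteins or serve mitochondria, peroxisomes and lysosomes.

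Levels are log2 values from RMA, a method that subtracts background, gives the arrays a common distribution and condenses each probe set to a single value. Where a gene has several probe sets, the one whose mean over the arrays was highest stands for it. Differences are IGR37 minus IGR39: positive means brighter in the metastasis line, and 1 unit is 2-fold. Genes count as measured above background here from log2 6 in the brighter line. Levels of different genes are not compared, since each probe set has its own response. The arrays had medians of 4.14 in IGR37 and 4.17 in IGR39. The 24 poly-A spike-in probe sets, which report RNAs put in ahead of labelling, differed by -0.47 to 0.68, and probe sets of the same gene varied with a pooled SD of 0.40. Of the 6 melanocyte lineage markers measured, all 6 stood at 10.65 to 13.05 in IGR37. In IGR39, MITF stood at 7.57 and the other 5, SOX10, MLANA, PMEL, TYR and TYRP1, at 3.15 to 4.29, so the defining melanocyte markers were near background in that line. The 4 leukocyte and 3 endothelial markers measured stayed under log2 6 in both lines. Among 3 keratinocyte markers, KRT10 stood at 9.08 in IGR37 and 9.13 in IGR39, while KRT5 and KRT14 were under log2 6. Among 5 fibroblast markers, LUM stood at 6.26 in IGR37 and 3.41 in IGR39, COL1A2 at 3.84 and 6.27, and COL1A1 at 6.15 and 5.87, while DCN and PDGFRB were under log2 6.

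Of the 45 ABC genes, 17 reached log2 6, with 13 of them at this level in IGR37 and 15 in IGR39. Of all 19775 named genes, 8501 reached it. ABCB5 and ABCB10 were higher in IGR37 by 2-fold or more, and ABCA1, ABCG2 and ABCC2 were lower by 2-fold or more. These 5 are 29.4% of the 17, against 21.0% of the 8501 genes at this level on the arrays. By direction, 2 of 17 (11.8%) were higher, against 11.4% of all genes, and 3 of 17 (17.6%) were lower, against 9.50%. The other 12 genes lay within 2-fold, 9 with a positive and 3 with a negative difference. Of the 17, 9 lay outside the spike-in range. The share of all genes outside it was not counted, so the 9 cannot be read as a trait of the family. The median difference was 0.41, against 0.07 for all genes at this level, but it was 0.047 without probe sets marked _x_at or _s_at and -0.060 over all 45 genes. In each of the 5 genes past 2-fold the dimmer line lay under log2 6, so each reached the minimum through its brighter line. Nearest to the 2-fold limit were ABCB10 among the genes past it, at a difference of 1.41, and ABCB6 among those within it, at 0.82. Nearest to log2 6 were ABCB9 and ABCB10, both with a brighter level of 6.18, and ABCA3, with 5.83. A bulk array cannot tell fewer cells with a transcript from less transcript per cell.

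**Figure D1:**
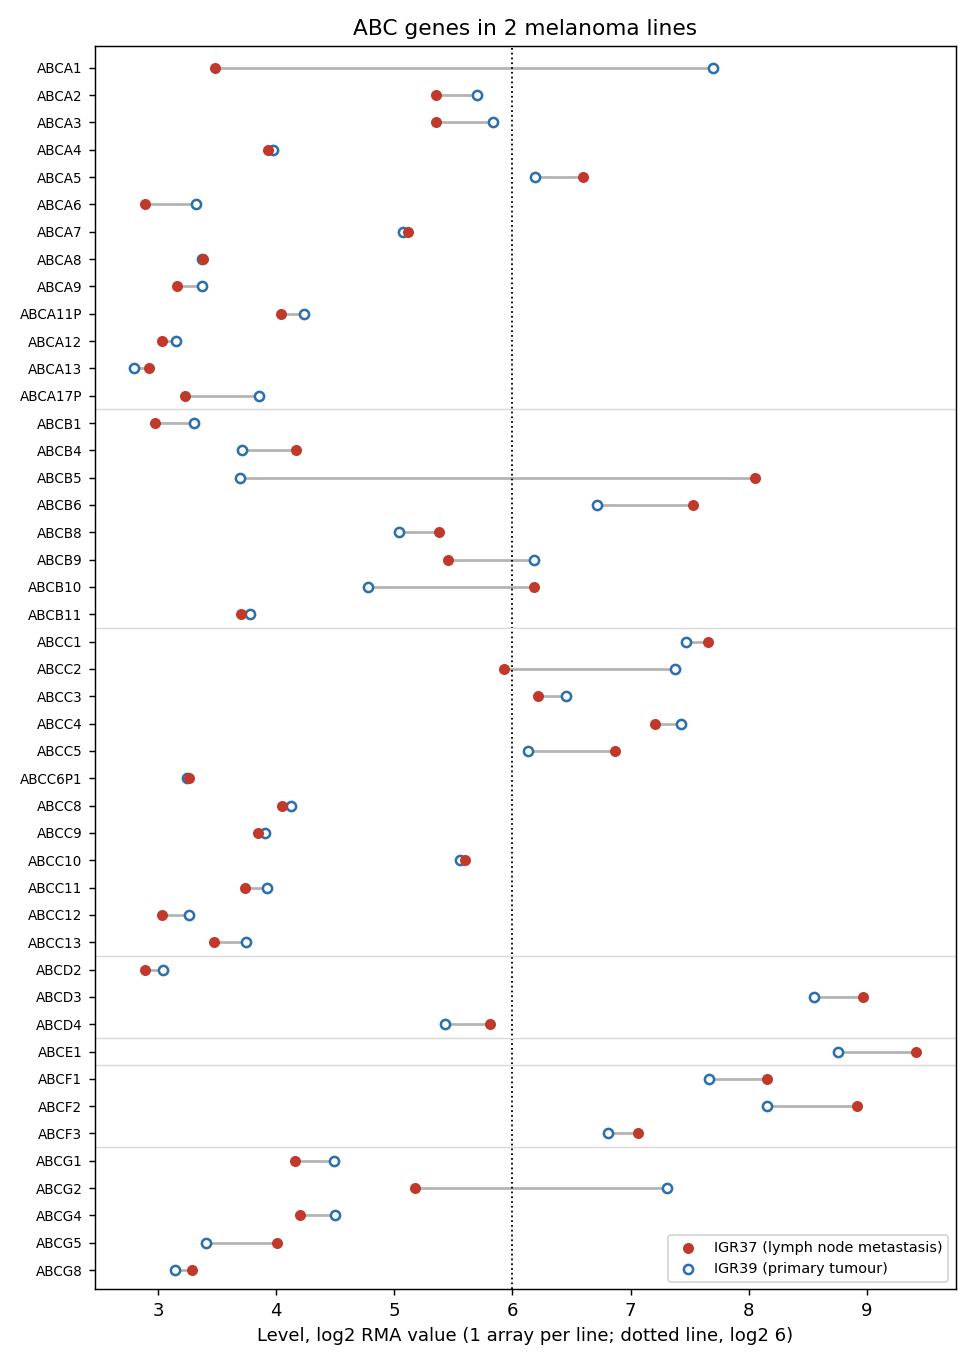
Levels of the 45 ABC genes (log2 RMA value, horizontal axis) in IGR37 (filled points) and IGR39 (open points), 1 array per line, ordered by subfamily. Levels are to be read within a gene. The longest lines are those of ABCB5, brighter in IGR37, and of ABCA1 and ABCG2, brighter in IGR39, and most genes to the left of the dotted line at log2 6 show short lines.

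**Figure D2:**
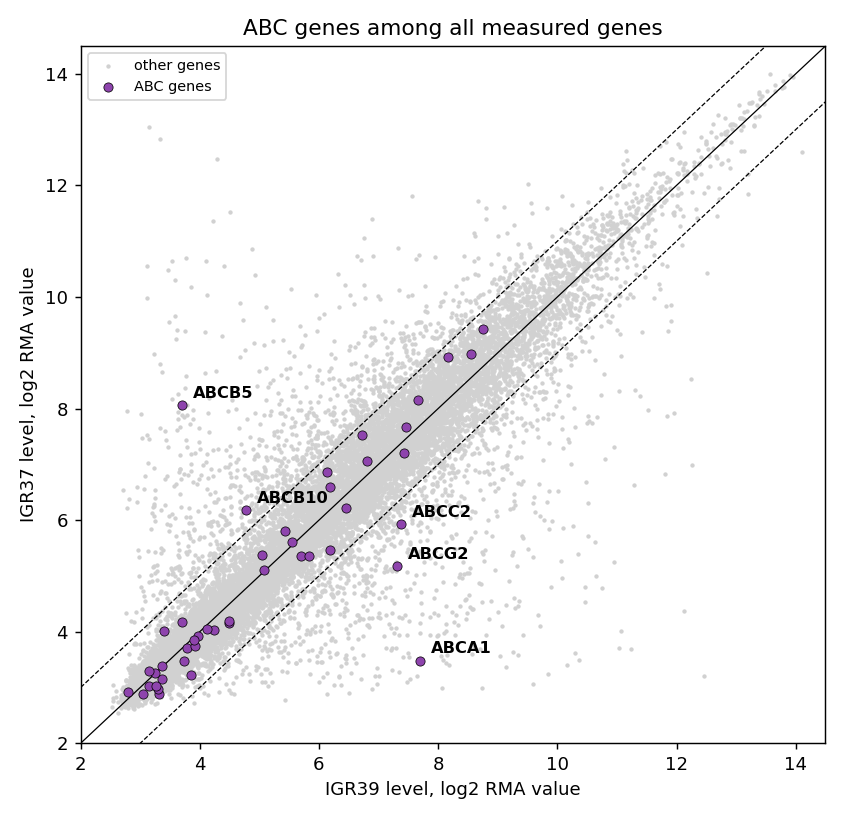
Level in IGR37 (vertical axis) against IGR39 (horizontal axis) for all 19775 named genes (grey) and the 45 ABC genes (purple), in log2 RMA values. The solid line marks equal levels and the dashed lines a difference of 2-fold. The 5 labelled genes lie outside the dashed lines, and the other ABC genes lie between them.

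The exporters of drugs and conjugates held the largest positive difference of the family and, after ABCA1, the most negative ones. Of 11 measured members of this list, 7 reached log2 6, with 1 higher in IGR37 by 2-fold or more, 2 lower by that much and 4 within 2-fold. Over all genes, 11.4% were higher and 9.50% lower. ABCB5 stood at 8.06 in IGR37 and 3.70 in IGR39. The difference of 4.36 corresponds to 20.6-fold and ranked 44 from the top among the 8501 genes. It rested on more than 1 probe set: a further one stood at 8.18 in IGR37 and 2.93 in IGR39, and another at 7.52 and 3.32. The remaining ABCB5 probe set was under log2 6 in both lines, at 4.55 in IGR37 and 4.18 in IGR39. The melanocyte lineage markers given above were brighter in IGR37 too, and their part in the ABCB5 difference was not tested.

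ABCG2, the breast cancer resistance protein that exports many drugs and urate, stood at 5.17 in IGR37 and 7.31 in IGR39. The difference was -2.14 (4.40-fold), rank 311 from the bottom. ABCC2, which exports bilirubin glucuronide and other conjugates into bile, stood at 5.93 in IGR37 and 7.38 in IGR39, a difference of -1.45 (2.72-fold). Each of these genes has 1 probe set here, so neither difference has a check from other probes. IGR39 was the brighter line for both, in contrast to ABCB5.

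The value of ABCC3, a relative of ABCC2 that exports glucuronides and bile acids, depended on the probe set. The one with the highest mean stood at 6.21 in IGR37 and 6.45 in IGR39, a difference of -0.24. Another stood at 4.73 in IGR37 and 6.94 in IGR39 (-2.21), and a further one at 5.20 and 6.77 (-1.57). The remaining probe sets, which end in _x_at because their probes may also bind other transcripts, differed by -0.78 and -1.19 and were under log2 6. All 5 were thus lower in IGR37, with sizes from within 2-fold to beyond 4-fold, and the rule for choosing a probe set took the smallest. With the median of the 3 probe sets at log2 6 or above, ABCC3 was at -1.57 and joined the genes lower by 2-fold or more. That made 4 of 17, against 9.43% of all genes in the same setting.

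The other members of this list at log2 6 differed by less than 2-fold. ABCC1, which exports glutathione conjugates and leukotriene C4, stood at 7.66 in IGR37 and 7.47 in IGR39, and its other probe set differed by 0.11. ABCC4, an exporter of cyclic nucleotides and prostaglandins, stood at 7.20 in IGR37 and 7.43 in IGR39. Its 3 dimmer probe sets differed by -0.17, 0.52 and 0.84, so its direction was not shared. ABCC5, which also exports cyclic nucleotides, stood at 6.87 in IGR37 and 6.13 in IGR39, a difference of 0.74, and its dimmer probe sets differed by 0.14 and 0.97.

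ABCB1, which encodes the multidrug exporter P-glycoprotein, was near background in both lines. It stood at 2.97 in IGR37 and 3.30 in IGR39, and a probe set shared with its neighbour ABCB4, left out of the gene values, at 4.46 and 3.65. ABCC10, ABCC11 and ABCC12 were also under log2 6, at 5.60 and less in both lines.

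**Figure D3:**
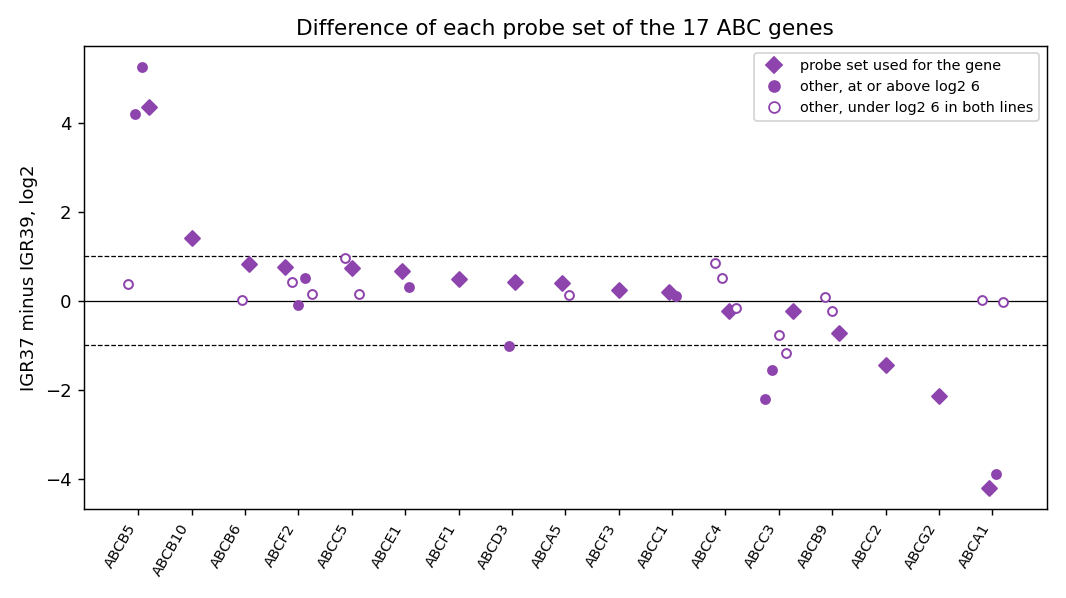
Difference between IGR37 and IGR39 (log2, vertical axis) for each probe set of the 17 ABC genes that reached log2 6. Diamonds are the probe sets used, filled circles others at or above log2 6 and open circles those under it in both lines, and dashed lines mark 2-fold. The filled symbols of ABCB5 and of ABCA1 lie together, while those of ABCC3 and ABCD3 lie on either side of a dashed line.

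Of the 7 ABC genes with at least 2 probe sets at log2 6 or above, 5 had all of these in 1 direction. The same share was not counted over the 3178 such genes on the arrays, so 5 of 7 has no background here. The ABC genes with mixed directions were ABCD3 and ABCF2, described with their groups.

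The largest negative difference belonged to ABCA1, which moves cholesterol and phospholipid to apolipoprotein A-I and is mutated in Tangier disease. It stood at 3.48 in IGR37 and 7.69 in IGR39. The difference of -4.21 corresponds to 18.6-fold and ranked 62 from the bottom among 8501 genes. A further probe set stood at 3.30 in IGR37 and 7.19 in IGR39 (-3.89), and the remaining 2 were near background in both lines, with differences of 0.01 and -0.04. The first 2 probe sets were thus well above background in IGR39, while both of these probe sets lay below the array median in IGR37.

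Few other lipid transporters reached log2 6. Of 12 measured genes of cholesterol and lipid transport, 2 reached log2 6, against 8501 of all 19775 named genes. The second was ABCA5, a protein of late endosomes and lysosomes, at 6.60 in IGR37 and 6.19 in IGR39. ABCG1, which exports cholesterol to high-density lipoprotein, stood at 4.16 in IGR37 and 4.49 in IGR39, so the partner of ABCA1 in this pathway was near background in both lines. ABCA2, a lysosomal protein, stood at 5.35 in IGR37 and 5.70 in IGR39, ABCA3, the surfactant lipid transporter of the lung, at 5.35 and 5.83, and ABCA7 at 5.11 and 5.08. ABCG5 and ABCG8, neighbouring genes whose proteins together export plant sterols, stood at 4.01 and 3.29 in IGR37 and at 3.40 and 3.14 in IGR39.

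Genes of cholesterol handling outside the family differed in both directions. Of 12 measured, 9 reached log2 6, of which 4 were higher in IGR37 by 2-fold or more, 1 was lower by that much, against 11.4% and 9.50% of all genes, and the median was 0.76. SCARB1, a receptor for high-density lipoprotein that exchanges cholesterol with it, stood at 9.13 in IGR37 and 6.53 in IGR39. MYLIP, a ubiquitin ligase that marks the LDL receptor for degradation, stood at 7.03 in IGR37 and 5.38 in IGR39. SREBF2, the regulator of cholesterol synthesis, differed by 1.30 and NPC1, which releases cholesterol from lysosomes, by 1.12. RXRA, the partner of several nuclear receptors, stood at 7.25 in IGR37 and 8.28 in IGR39 (-1.03). NR1H3, which encodes the sterol sensor LXR alpha, was near background, at 3.54 in IGR37 and 3.84 in IGR39. APOE, a lipoprotein component, was within 2-fold at 6.81 and 6.05. The part of these genes in the ABCA1 difference was not tested.

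Of 3 measured mitochondrial members, 2 reached log2 6, both with positive differences and 1 past 2-fold. Among all 8501 genes at log2 6, 4635 had a positive difference and 11.4% were higher in IGR37 by 2-fold or more. ABCB10, a protein of the inner membrane tied to haem synthesis, stood at 6.18 in IGR37 and 4.78 in IGR39, a difference of 1.41 (2.66-fold) from its only probe set. ABCB6, which carries porphyrins and is mutated in an inherited disorder of skin pigmentation, stood at 7.53 in IGR37 and 6.71 in IGR39, with 0.02 on its dimmer probe set. ABCB8 was under log2 6, at 5.38 in IGR37 and 5.04 in IGR39, with -0.05 on its dimmer probe set. Of 9 measured genes of iron-sulphur cluster and haem synthesis, all at log2 6, 8 differed by less than 2-fold and 1 was higher in IGR37 by more, near the 11.4% of all genes. That gene was ALAS1, the first enzyme of haem synthesis, at 8.88 in IGR37 and 7.81 in IGR39. FECH, the last enzyme, was just inside the limit at 7.41 and 6.44. The 8 within 2-fold had differences from -0.48 for NFS1, which supplies sulphur to the clusters, to 0.98 for FECH.

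Of ABCD2, ABCD3, ABCB9 and ABCD4, the peroxisomal and lysosomal members described here, ABCD3 and ABCB9 reached log2 6. ABCD3, the peroxisomal importer of branched fatty acids and bile acid precursors, stood at 8.97 in IGR37 and 8.55 in IGR39. Its other probe set went the opposite way, at 6.37 in IGR37 and 7.38 in IGR39 (-1.01), so the gene has no settled direction. ABCD2, its relative for very long chain fatty acids, was near background at 2.89 and 3.04. Of 8 measured peroxisome genes, 7 reached log2 6 and all 7 lay within 2-fold, as did 6720 of all 8501 genes at this level. PEX19, the carrier of membrane proteins to peroxisomes, stood at 7.33 in IGR37 and 6.40 in IGR39. ABCB9, a lysosomal peptide transporter, stood at 5.46 in IGR37 and 6.18 in IGR39, with 0.08 and -0.23 on its dimmer probe sets. ABCD4, which moves cobalamin out of lysosomes, stood at 5.81 in IGR37 and 5.43 in IGR39. TAP1 and TAP2, ABC proteins under other names that bring peptides to HLA class I, were within 2-fold, at 7.54 and 6.36 in IGR37 and at 7.93 and 6.34 in IGR39.

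The ABC proteins without a membrane domain are ABCE1 and ABCF1 to ABCF3. All 4 reached log2 6 in both lines, all 4 had a positive difference, and none reached 2-fold. Of all 8501 genes with a brighter line at log2 6 or above, 6720 lay within 2-fold and 4635 had a positive difference. ABCE1, which splits ribosomes after translation ends, stood at 9.42 in IGR37 and 8.76 in IGR39, with 0.31 on its other probe set. ABCF1, a factor of translation initiation, stood at 8.15 in IGR37 and 7.66 in IGR39, and ABCF3 at 7.06 and 6.81. ABCF2 stood at 8.92 in IGR37 and 8.16 in IGR39 (0.76), while 2 others of its probe sets at log2 6 differed by 0.50 and -0.10. Of the 4, ABCF2 alone lay above the upper spike-in difference of 0.68. Of 10 genes of ribosome recycling and initiation, 9 lay within 2-fold and 1 was higher in IGR37 by more, near the 11.4% of all genes. That was HBS1L, the partner of PELO in rescuing stalled ribosomes, at 8.65 in IGR37 and 7.24 in IGR39.

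Of 6 measured regulators of drug efflux genes, 5 reached log2 6, with 4 within 2-fold and 1 lower in IGR37 by more, against 9.50% of all genes. AHR, the aryl hydrocarbon receptor, a sensor of foreign compounds, stood at 5.78 in IGR37 and 7.48 in IGR39 (-1.71). Its part in the difference of any exporter was not tested. NFE2L2, the regulator of antioxidant genes and of several ABCC exporters, stood at 9.21 in IGR37 and 8.71 in IGR39. HIF1A stood at 9.94 and 10.82.

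**Figure D4:**
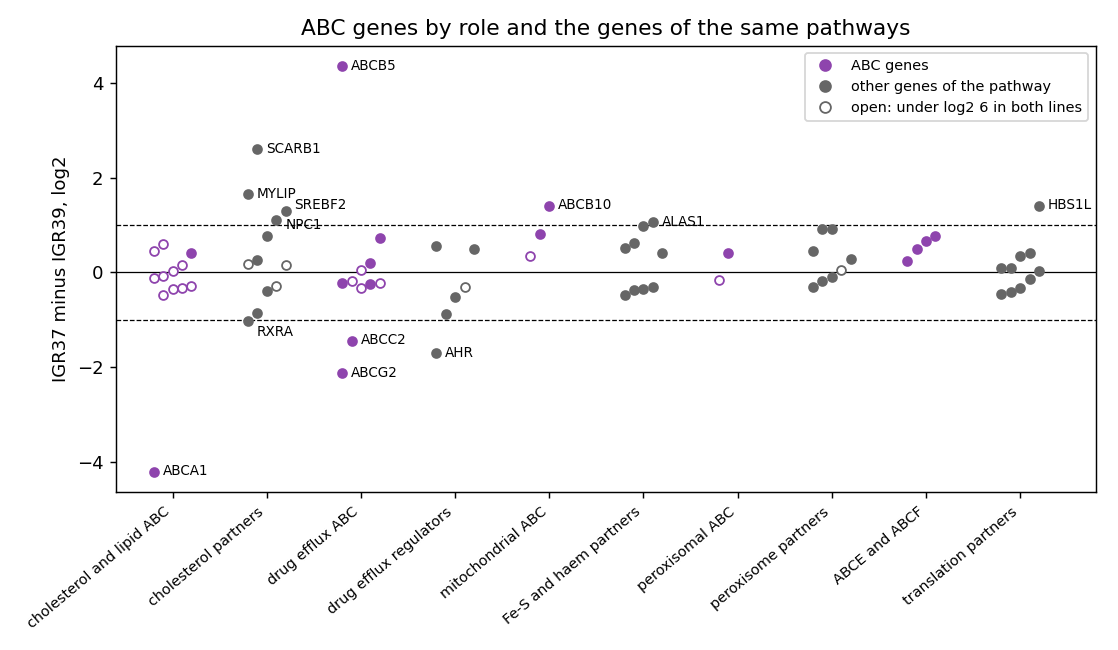
Difference between IGR37 and IGR39 (log2, vertical axis) for ABC genes by role (purple) and for other genes of the same pathways (grey). Each point is a gene, open points are under log2 6 in both lines, and dashed lines mark 2-fold. Genes at log2 6 beyond 2-fold are named: ABCB5 is the highest point and ABCA1 the lowest, and cholesterol partners include 4 genes above the upper dashed line.

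The 28 ABC genes under log2 6 stood between 2.80 and 5.83. None of them differed by 2-fold, and only 325 of all 11274 genes under log2 6 did. Their differences ranged from -0.63 for the pseudogene ABCA17P to 0.60 for ABCG5. They include genes known from other organs, such as the retinal ABCA4 at 3.93 in IGR37 and 3.97 in IGR39. The skin lipid transporter ABCA12 stood at 3.03 in IGR37 and 3.15 in IGR39, and the bile salt pump ABCB11 at 3.70 and 3.78. The sulphonylurea receptors ABCC8 and ABCC9, which regulate potassium channels, stood at 4.05 and 3.85 in IGR37 and at 4.12 and 3.91 in IGR39. Their channel partners KCNJ8 and KCNJ11 were also near background. CFTR, a chloride channel of the same family, stood at 3.64 and 3.81. The neighbouring genes ABCA8, ABCA9 and ABCA6 were near background together, at 2.89 to 3.38 in IGR37 and 3.32 to 3.37 in IGR39. The other genes under log2 6 were ABCA13, ABCB4, ABCG4 and the pseudogenes ABCA11P, ABCC6P1 and ABCC13.

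Promoter sequences were looked up because 5 of the genes differed by 2-fold or more and because MITF, which binds the E-box letters CACGTG and CATGTG, differed by 4.25 between the lines. RefSeq windows of the build GRCh38.p14, from 250 bases before to 50 bases after a transcript start, were found for 33 of the 45 genes, 49 windows in all. ABCB5 is not among the 33. The 4 windows below belong to the other 4 genes past 2-fold, in the order of their differences from the lowest, and show how unlike they are in base composition. They lie at chr9:104928106-104928405 on the minus strand (ABCA1), chr4:88158860-88159159 on the minus strand (ABCG2), chr10:99782390-99782689 on the plus strand (ABCC2) and chr1:229558658-229558957 on the minus strand (ABCB10). Each is written 5′ to 3′ along its gene, with an E-box match in capitals.
ABCA1: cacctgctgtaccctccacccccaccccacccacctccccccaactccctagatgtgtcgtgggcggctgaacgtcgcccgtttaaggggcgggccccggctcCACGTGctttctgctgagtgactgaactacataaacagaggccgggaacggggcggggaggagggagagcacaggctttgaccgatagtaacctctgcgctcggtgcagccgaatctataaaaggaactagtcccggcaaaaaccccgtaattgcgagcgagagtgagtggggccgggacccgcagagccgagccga
ABCG2: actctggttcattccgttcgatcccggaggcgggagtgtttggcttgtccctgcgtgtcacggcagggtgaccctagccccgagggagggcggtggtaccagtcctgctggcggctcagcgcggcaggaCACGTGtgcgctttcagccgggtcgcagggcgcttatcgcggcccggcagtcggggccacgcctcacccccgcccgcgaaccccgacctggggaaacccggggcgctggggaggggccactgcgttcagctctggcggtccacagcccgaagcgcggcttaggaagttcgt
ABCC2: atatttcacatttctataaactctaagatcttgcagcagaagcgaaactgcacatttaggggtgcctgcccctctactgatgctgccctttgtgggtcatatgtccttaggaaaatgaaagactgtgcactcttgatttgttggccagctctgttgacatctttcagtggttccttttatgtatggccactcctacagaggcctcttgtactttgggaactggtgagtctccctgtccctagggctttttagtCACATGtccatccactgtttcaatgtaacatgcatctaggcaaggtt
ABCB10: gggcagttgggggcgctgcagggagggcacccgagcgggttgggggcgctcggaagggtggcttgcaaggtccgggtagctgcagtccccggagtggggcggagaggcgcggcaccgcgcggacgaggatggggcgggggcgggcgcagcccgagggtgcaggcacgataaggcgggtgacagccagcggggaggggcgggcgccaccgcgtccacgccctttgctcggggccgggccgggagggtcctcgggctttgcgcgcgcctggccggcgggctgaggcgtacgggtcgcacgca

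The ABCA1 window holds CACGTG 147 bases before the start. The ABCG2 window holds it 121 bases before the start, and the same letters lie in a second, overlapping window of the 5 listed for that gene. ABCC2 holds CATGTG on the opposite strand, read as CACATG in the line above, 3 bases after the start. The ABCB10 window holds neither. A match was thus found for 3 of 3 genes lower by 2-fold or more, for 0 of 1 higher gene with a window and for 4 of 10 within 2-fold (ABCB6, ABCB9, ABCF1 and ABCF3), numbers too small to set the groups apart. The windows were read from the reference genome and not from these lines. Matches were searched on both strands. Of all 35116 windows, 7.26% hold CACGTG, 11.1% CATGTG and 17.6% either. Per gene, 7 of the 14 ABC genes at log2 6 with a window had a match in at least 1 window, against 21.3% of 7093 such genes on the arrays. Among ABC genes under log2 6 it was 3 of 19, or 15.8%. A match describes the letters and does not show a binding site.

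The promoters also differed in CpG content, given as the number of CG pairs over that expected from the C and G bases. The ABCA1, ABCG2 and ABCB10 windows above had 0.78, 0.90 and 0.94, whereas the ABCC2 window held 1 CG pair and had 0.066. With the median over the windows of a gene, 13 of 14 ABC genes at log2 6 had 0.6 or more (92.9%), against 85.6% of 7093 such genes on the arrays. Of the 19 under log2 6, 7 had it (36.8%), against 47.3% of 8289 genes. The medians were 0.92 for ABC genes at log2 6 and 0.32 for those under it, against 0.84 and 0.56 for all genes. ABCC2 was the exception in the first group. In the second, ABCC9 had 0.98 and ABCA3 0.93. Several genes have starts of different kinds, and the windows of ABCG2 ranged from 0.25 to 0.90. Which start was used in these lines cannot be read from the arrays.

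**Figure D5:**
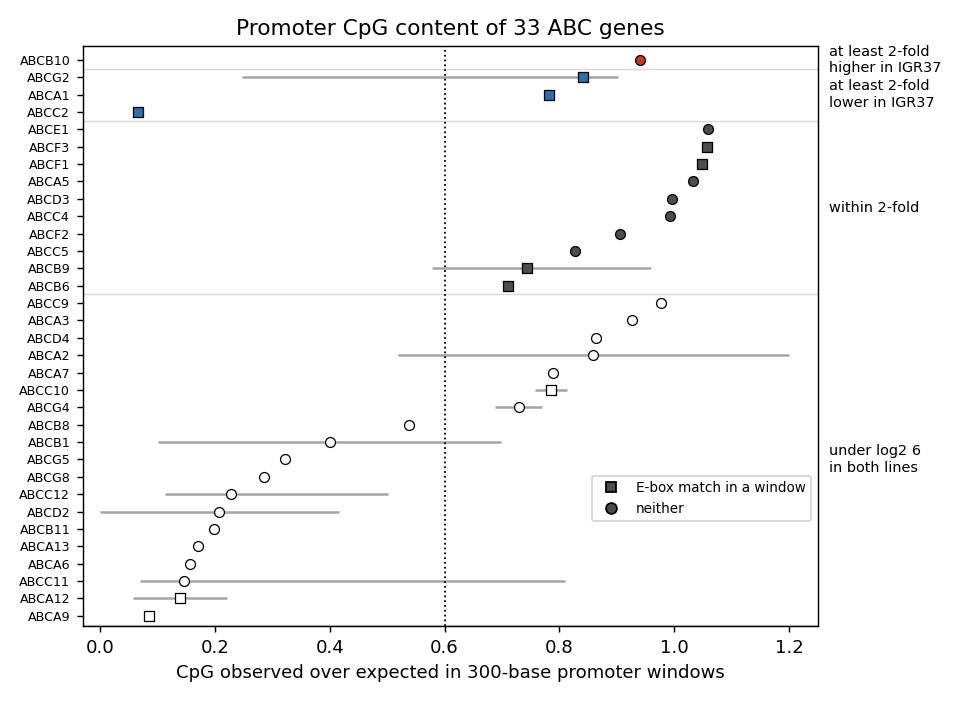
Ratio of observed to expected CpG (horizontal axis) in the RefSeq promoter windows of 33 ABC genes, grouped by their difference between the lines. Points are medians over the windows of a gene, grey lines run from its lowest to its highest window, squares have an E-box match, and the dotted line is at 0.6. Genes at log2 6 lie right of the dotted line except ABCC2, at 0.066, and most genes under log2 6 lie left of it.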

How the data were processed

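Labelled RNA of IGR37 and IGR39 was measured on Affymetrix U133 Plus 2.0 arrays. The deposited log2 levels came from the affy package and RMA, per the submitters' processing notes. The sources used here give no versions and do not say which arrays the authors normalised together. RMA removes overall brightness differences and compresses differences between low levels. Of 54675 probe sets, 41091 had 1 symbol in the platform annotation and entered the gene values. Of these, 41037 matched RefSeq by gene identifier and took its symbol. Counts used genes whose brighter array reached log2 6 and a limit of 2-fold. No test was run.

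The members and gene lists were chosen with earlier results of these data known. Every ABC gene at log2 6 is named with both values, and others by role. 8 alternatives were planned and 1 was added after the data were seen. The 2-fold limit was tried on simulated levels with known changes and noise of a preset size, which does not measure the error of these arrays. Python 3.11.15, numpy 2.4.6, pandas 2.3.3, statsmodels 0.14.6 and matplotlib 3.10.9 were used.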

Additional observations from a re-analysis of the deposited data

How the results depend on the processing

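The counts past 2-fold, 2 ABC genes higher and 3 lower in IGR37, held under a minimum of log2 5, no minimum, centring on array medians, removal of a lowess trend (span 0.3) and centring on 22 housekeeping genes, which lowered every difference by 0.11. In each of these settings the genes were ABCB5, ABCB10, ABCA1, ABCG2 and ABCC2. Only 1 gene was higher at a minimum of log2 7, and likewise with _x_at and _s_at probe sets left out, since ABCB10 falls under that minimum and has an _s_at probe set alone. The mean over all probe sets kept the counts of 2 and 3 but not the genes: ABCA1 fell under the minimum through its dim probe sets, and ABCC3 entered at -1.20. ABCB5 was then at 3.55. The median over probe sets at log2 6 or above, chosen after seeing the data, gave 4 lower genes, with ABCC3 at -1.57. The median difference of 0.41 was -0.060 with no minimum, over all 45 genes, and 0.047 to 0.43 otherwise. Under that no-minimum setting 5.80% of all genes were higher and 4.85% lower. ABCD3 turned to -0.30 with the mean or the median over probe sets, and ABCF2 to -0.10 without _x_at and _s_at probe sets. Of 41 differences of single genes under the alternatives that changed the probe set, 7 moved by more than the pooled SD of 0.40. Under the other alternatives 0 did, but a changed minimum leaves each difference as it is and centring shifts all alike. Only removal of the lowess trend could move genes singly. In the dimmer line the 5 genes past 2-fold lie under log2 6, between 3.48 for ABCA1 and 5.93 for ABCC2, which limits how well their folds are known.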
